A study of Mus musculus with 47 samples.

Results

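Potassium channel subunit genes were followed in mouse striatum across 6 genotype groups. They were taken by name: every gene of the count table whose symbol begins with Kcn, followed by letters and an optional number. The rule gave 93 of the 48795 genes in the table. It reads symbols only and used no measured value. Of the 93, 80 had enough counts for the tests, 13 did not pass the filter on low counts, and 1 of those 13, Kcnk16, was at 0 in all libraries. The others that did not pass were Kcna7, Kcna10, Kcne1, Kcne3, Kcnj1, Kcnj13, Kcnj15, Kcnk7, Kcnk15, Kcnk18, Kcnmb3 and Kcnv2. Among these the total over all libraries ran from 1 count for Kcne1 to 340 for Kcnj13.

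The study sequenced 47 libraries of striatal RNA from mice aged 6 months on a C57BL background. Wild-type mice (WT), Ccdc82+/- mice and Ccdc82-/- mice made up 3 of the groups. The other 3 carried the same Ccdc82 genotypes together with 1 copy of the Q140 knock-in allele, labelled Het (Q140) KI, and are called Q140, Q140 Ccdc82+/- and Q140 Ccdc82-/- here. Groups held 8 libraries, 4 of each sex, except Q140 Ccdc82-/-, which held 3 females and 4 males. The Q140 allele places an expanded CAG repeat in the mouse Htt gene and is a model of Huntington's disease. It is present in every cell of the animal, and the labels do not describe how the Ccdc82 allele was made. The labels give each library a sex and a replicate number within its group and do not say outright that each came from 1 animal. P-values therefore set a difference between groups against the spread between these libraries. A plate row and a plate column are also recorded for each library. Plate columns were not spread evenly: column 4 held WT libraries and none of Q140, and column 1 held Q140 libraries and none of WT.

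Potassium channels set the resting potential of a neuron, repolarise it after an action potential and shape how it fires. Medium spiny neurons, the projection neurons that make up most of the striatum, are known for strong inward rectification at rest, for A-type currents that delay their firing, and for an M-type current. Pore-forming subunits open to voltage (Kcna, Kcnb, Kcnc, Kcnd, Kcnh and Kcnq), to calcium or sodium (Kcnm, Kcnn and Kcnt), rectify inwardly (Kcnj) or carry leak current as 2-pore subunits (Kcnk). Silent subunits (Kcnf, Kcng, Kcns and Kcnv) form no channel alone and modify Kcnb channels, and auxiliary subunits such as Kcnab, Kcne and Kcnip bind the pore-forming ones.

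Libraries held 41.3 to 61.7 M counts, with a median of 47.7 M, and the Kcn genes took 0.673% ± 0.0117 (SD, n = 8) of the counts in WT. Striatal markers were high in all libraries: Ppp1r1b, a signalling protein of medium spiny neurons, ranged from 555.4 to 987.2 FPKM (fragments per kilobase and M counts). Slc17a7, a marker of cortical excitatory neurons, ranged from 0.292 to 1.32 FPKM. Ccdc82 itself had a median of 6.45 FPKM in WT, 4.51 in Ccdc82+/- and 2.32 in Ccdc82-/-, with no overlap between the 3 groups, so some Ccdc82 RNA was counted in the -/- mice. One library, Ccdc82-/- male 1, stood apart in choroid plexus markers, and results that rest on it are given with and without it. In bulk tissue, fewer cells of a type and less RNA per cell cannot be told apart. A list of 15 medium spiny neuron markers moved with the Q140 allele: 13 of the 15 were lower and 1 higher in Q140 than in WT, and their summed level was 2381 to 2845 FPKM in Q140 against 3719 to 3989 in WT. No marker of that list was at 0 in all libraries, and its part in the results below was not tested. Other marker lists moved too. The sum of 9 cortical excitatory neuron markers was 43.8 to 51.0 FPKM in Q140 and 35.8 to 40.5 in WT, with 3 markers higher and 3 lower, and the sums did not overlap on the other backgrounds either. Their median log2 fold change was -0.28 against WT, -0.11 with Ccdc82+/- and 0.25 with Ccdc82-/-, so the higher sum did not hold for the typical marker against WT. Endothelial and mural markers were lower for 7 of 14 in Q140 against WT, and for 10 with Ccdc82+/- and 8 with Ccdc82-/-. Microglial markers were lower for 3, 9 and 7 of 10 in the same order. Of all tested genes, 16.5%, 16.7% and 15.7% were lower in that order at an adjusted p under 0.05. In Q140 against WT 18.2% of all tested genes were higher. Astrocyte markers were lower for 5, 4 and 5 of 11 and higher for 1, 1 and 0. Oligodendrocyte markers were lower for 4, 2 and 6 of 10. The part of these lists was not tested either.

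To show the DNA in front of genes that changed, sequences are printed for called genes with an average log2 CPM of 0 or more. That leaves out the called genes Kcng4 and Kcnh8. Each gene also has a RefSeq promoter entry (GRCm38.p6) with at least 50 bases outside annotated exons. These are the 3 largest falls and the 2 rises that meet these conditions in Q140 against WT. Each line gives bases before the transcription start, 5′ to 3′ on the gene's strand, and leaves out bases in a GENCODE M21 exon. Capitals mark a match to 1 of 6 motifs, searched on both strands. The cyclic AMP response element, or CRE, was searched as TGACGTCA and the site of the AP-1 factors as TGANTCA. The site of the Egr factors was searched as GCGTGGGCG and the GC box, a site of Sp factors, as GGGCGG. The TATA box of core promoters was searched as TATAAA, and the CCAAT box by the letters of its name. The letters of none of these motifs contain those of another on either strand.
Kcnh4, lower in Q140, chr11:100759943-100760028, minus strand: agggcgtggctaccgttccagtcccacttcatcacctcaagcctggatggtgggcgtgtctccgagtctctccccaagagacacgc
Kcnab1, lower in Q140, chr3:65108764-65109013, plus strand: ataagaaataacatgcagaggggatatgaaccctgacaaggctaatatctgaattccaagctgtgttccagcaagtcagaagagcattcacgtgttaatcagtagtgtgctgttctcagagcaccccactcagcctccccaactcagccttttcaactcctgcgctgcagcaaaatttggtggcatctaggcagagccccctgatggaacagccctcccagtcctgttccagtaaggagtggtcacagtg
Kcnk2, lower in Q140, chr1:189402274-189402523, minus strand: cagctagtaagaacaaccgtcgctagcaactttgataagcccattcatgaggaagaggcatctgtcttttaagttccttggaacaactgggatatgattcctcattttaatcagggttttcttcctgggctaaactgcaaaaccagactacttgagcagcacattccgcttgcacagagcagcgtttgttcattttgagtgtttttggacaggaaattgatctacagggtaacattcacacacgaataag
Kcnh6, higher in Q140, chr11:106007898-106008123, plus strand: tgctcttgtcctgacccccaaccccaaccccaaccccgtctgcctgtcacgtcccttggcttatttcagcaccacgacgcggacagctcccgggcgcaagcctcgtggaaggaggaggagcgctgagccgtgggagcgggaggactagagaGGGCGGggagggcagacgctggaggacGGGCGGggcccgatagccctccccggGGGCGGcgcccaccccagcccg
Kcnj9, higher in Q140, chr1:172329323-172329572, minus strand: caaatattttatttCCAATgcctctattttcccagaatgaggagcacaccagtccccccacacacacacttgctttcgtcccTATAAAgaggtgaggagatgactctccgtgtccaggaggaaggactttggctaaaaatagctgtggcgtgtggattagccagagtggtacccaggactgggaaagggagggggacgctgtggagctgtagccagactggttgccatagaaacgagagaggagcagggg

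Kcnh6 had 3 GC boxes in its 226 printed bases, and Kcnj9 had 1 TATA box and 1 CCAAT box. None of the 3 falling genes held a match in the bases shown, which says only that these letters are not in these windows. Kcnab1 has 3 RefSeq entries and Kcnk2 has 4, and the one nearest the annotated gene start is shown. Over the 250 bases before the start, 93 entries for 68 of the 93 subunit genes could be searched, beside 32851 entries for all genes. A GC box was present in 44.1% of the subunit gene entries and 32.7% of all entries, and a TATA box in 3.23% and 12.4%. The CCAAT box was found in 29.0% and 33.9%, AP-1 in 4.30% and 6.75%, and neither CRE nor Egr in any of the 93, against 1.55% and 0.54% of all entries. Among the 53 entries of tested genes that were not called in Q140 against WT, 45.3% held a GC box.

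Levels are compared between genes as FPKM, which are per length. Kcnip2 had the highest level of the family in WT, 106.5 to 119.7 FPKM (mean 113.0 ± 4.81, SD, n = 8). It encodes a calcium-binding partner of the A-type Kcnd channels. Kcnj4, a strong inward rectifier, followed at 97.1 to 109.5 FPKM, and the ranges of these genes overlapped. Kcnab1, a cytoplasmic subunit that speeds the inactivation of Kcna channels, came next at 63.4 to 69.6 FPKM and overlapped with neither neighbour in the order. Below it the ranges of neighbours ran into each other down to rank 19, among them Kcnab2 (mean 56.2 FPKM), the Elk-type channel gene Kcnh3 (51.3), the A-type gene Kcnd2, the sodium-activated Kcnt1 (45.5), Kcnk1 (42.8) and Kcnip3 (37.0).

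The 93 genes together summed to 1101 to 1152 FPKM in WT and 986.1 to 1041 in Q140, groups that did not overlap. In Ccdc82+/- the sum averaged 1128 ± 26.7 FPKM (SD, n = 8), and in Q140 Ccdc82+/- 1014 ± 14.6 (SD, n = 8). It averaged 1123 ± 15.6 FPKM (SD, n = 8) in Ccdc82-/- and 1009 ± 13.6 (SD, n = 7) in Q140 Ccdc82-/-. The level was thus lower in each of the 3 groups with the Q140 allele. No test was made on sums over the genes. A gene is called changed below where its adjusted p is under 0.05.

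**Figure D1:**
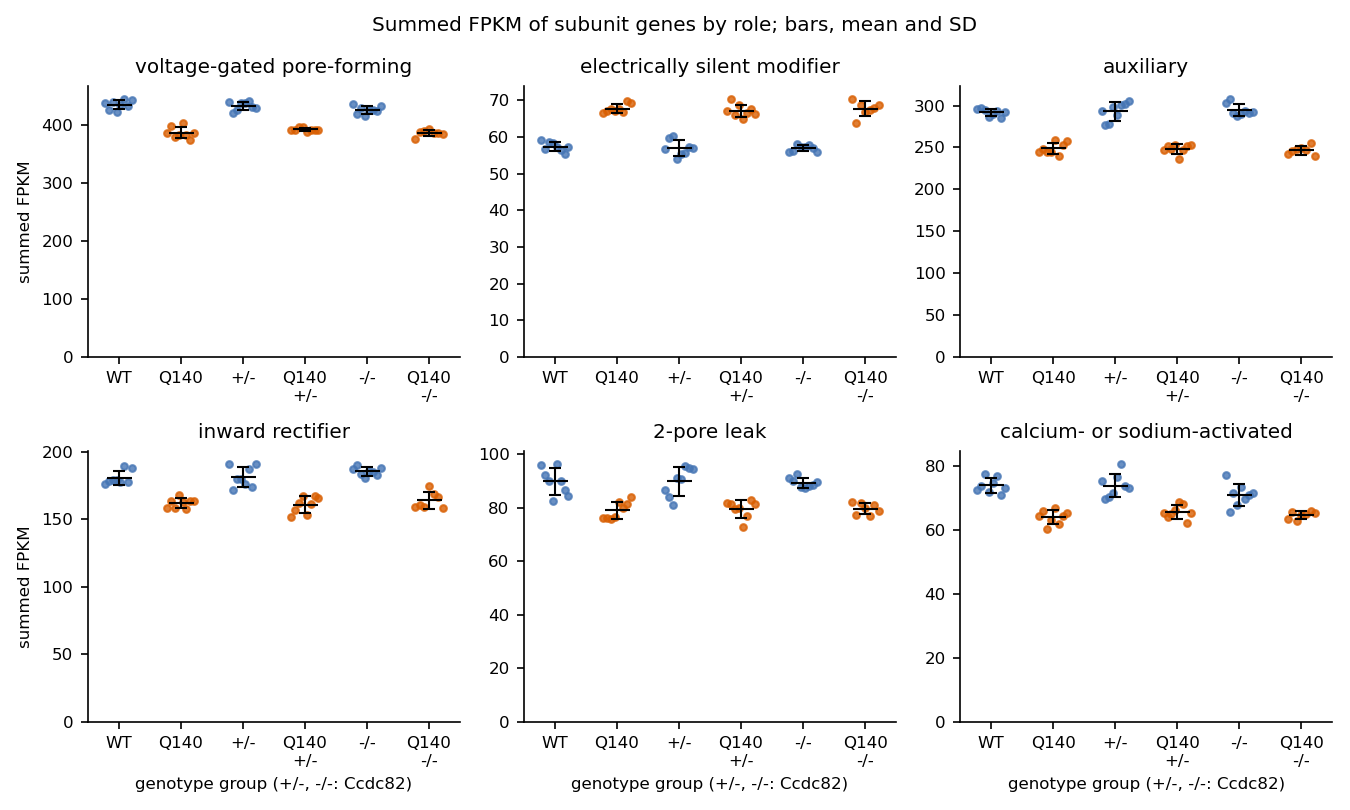
Summed FPKM of the subunit genes by role (vertical axes) in each of the 6 genotype groups (horizontal axes), 1 point per library, with mean and SD. The silent subunits sum to 66.5 to 69.7 FPKM in Q140 and 55.3 to 59.1 in WT, and the other 5 roles are lower on average in Q140.

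By role, the mean sum of voltage-gated pore-forming genes was 434.8 FPKM in WT and 386.2 in Q140, and that of auxiliary genes was 291.9 and 248.9. Inward rectifiers summed to 180.9 FPKM in WT and 162.2 in Q140, 2-pore genes to 89.8 and 79.0, and calcium- or sodium-activated genes to 74.0 and 64.1. Of these sums only those of the 2-pore genes overlapped, at 82.7 to 96.5 FPKM in WT and 76.0 to 84.2 in Q140. Silent subunit genes went the other way, from 57.3 ± 1.28 FPKM (SD, n = 8) in WT to 67.7 ± 1.17 (SD, n = 8) in Q140. Most of that difference was in Kcng1, at 9.34 FPKM in WT and 17.1 in Q140, while the Kcns genes summed to 14.1 and 12.6, and the median log2 fold change of the 9 tested silent genes was -0.06. On the Ccdc82+/- background the silent genes summed to 54.0 to 60.1 FPKM without and 65.0 to 70.3 with Q140. On the Ccdc82-/- background the ranges were 55.7 to 58.0 and 63.9 to 70.4 FPKM.

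Q140 was compared with WT to ask what the knock-in changes. Of the 80 tested subunit genes, 35 were called (34.7% of all 19193 tested genes were), 7 higher and 28 lower. Those are 8.75% and 35.0% of the genes, where 18.2% and 16.5% of all tested genes were called higher and lower. The median log2 fold change was -0.09 for the 80 genes and -0.0005 for all tested genes. No value of Q140 overlapped with WT for 2 of the higher and 11 of the lower genes, against 4.70% and 5.07% of all tested genes. With libraries scaled by total counts alone, in place of the trimmed mean of M values, the split was 13 higher and 20 lower, where 30.9% and 11.1% of all genes were called. That scaling put the median of all tested genes at 0.06 and that of the subunit genes at -0.03.

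The same allele was compared on the other 2 Ccdc82 backgrounds, and these 3 comparisons share no library. In Q140 Ccdc82+/- against Ccdc82+/-, 33 subunit genes were called (35.0% of all genes), 11 higher and 22 lower, where 18.4% and 16.7% of all genes were. In Q140 Ccdc82-/- against Ccdc82-/-, 35 were called (33.2% of all genes), 12 higher and 23 lower, where 17.5% and 15.7% of all genes were. The groups did not overlap for 4 higher and 11 lower subunit genes on the +/- background (4.52% and 5.76% of all genes), and for 5 and 13 on the -/- background (4.12% and 5.36%). Under total-count scaling the splits were 16 and 16 on the +/- background (34.0% and 10.1% of all genes) and 14 and 17 on the -/- background (32.1% and 9.69%). The median of all tested genes was then 0.08 and 0.07, and the median of the subunit genes moved from -0.05 to 0.03 on the +/- background. In at least 1 of the 3 comparisons 46 subunit genes were called (47.5% of all tested genes). In all 3, 18 subunit genes were lower and 6 higher, where 11.3% and 11.8% of all tested genes were. Under total-count scaling Kcna1, Kcna4, Kcnd1, Kcnq3 and Kcns2, which are among the 18, lost their call in at least 1 of the 3 comparisons. No subunit gene was called higher in one comparison and lower in another, and 0.0156% of all tested genes were.

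**Figure D2:**
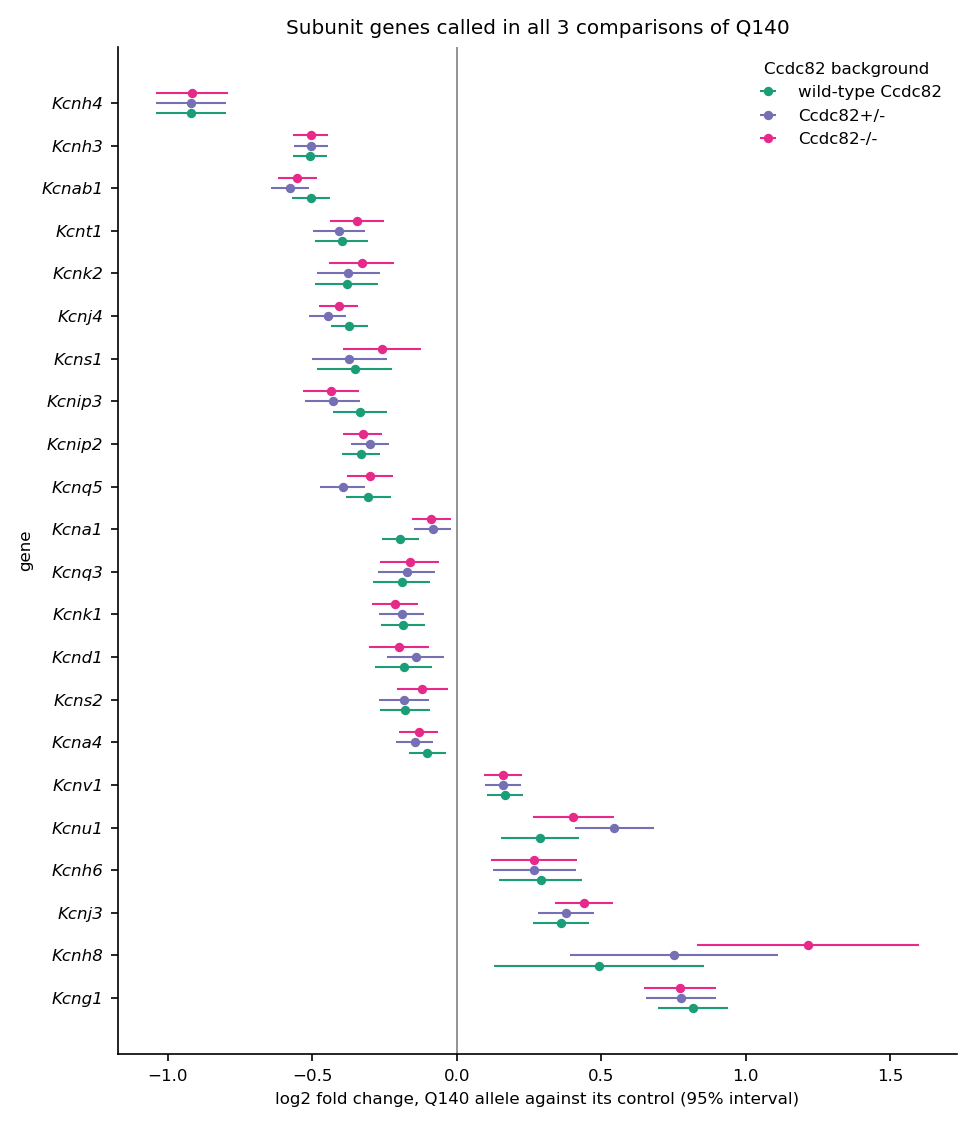
Log2 fold change (horizontal axis) of Q140 against its control for 22 of the 24 subunit genes called in all 3 comparisons (vertical axis), with 95% intervals, coloured by Ccdc82 background. Kcnh4 lies at -0.92 on all 3 backgrounds and Kcng1 between 0.77 and 0.82.

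The calls depended on the level of the gene. Among the 29 tested subunit genes with at least 10 FPKM in WT, 18 were lower and 2 higher in Q140, so that 62.1% were lower where 28.1% of all genes at that level were. Between 1 and 10 FPKM, 8 of 31 were lower and 3 higher (25.8% lower, against 14.4% of all genes). Under 1 FPKM, 2 of 20 were lower and 2 higher (where 8.78% of all genes at that level were lower). Of all genes, 1197 of 5222 were higher in the top class, 1835 of 8457 in the middle and 453 of 5514 in the lowest. The median 95% half-width of a log2 fold change was 0.08 in the highest class of the subunit genes and 0.35 in the lowest.

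**Figure D3:**
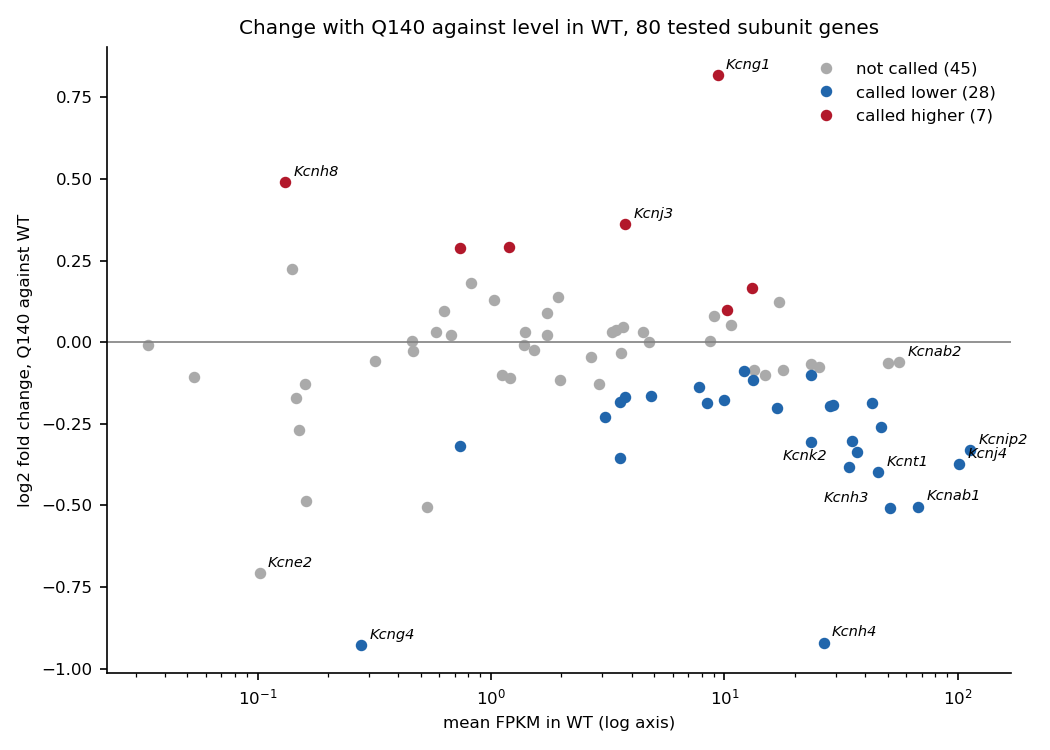
Log2 fold change of Q140 against WT (vertical axis) against mean FPKM in WT (horizontal log axis) for the 80 tested subunit genes, coloured by call. Most genes called lower lie at the right, where Kcnh4, Kcnh3, Kcnab1, Kcnj4 and Kcnip2 are labelled.

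Of the 28 tested voltage-gated pore-forming genes, 12 were lower and 2 higher in Q140, where 16.5% and 18.2% of all tested genes were. The largest change was in Kcnh4 (chr11:100740376-100759942), an Elk-type channel gene. It ranged from 96.3 to 123.8 CPM (scaled counts per M; median 106.6) in WT and from 46.5 to 65.9 (median 56.3) in Q140. All Q140 libraries were below all WT libraries, at 52.8% of the WT level (log2 fold change -0.92 ± 0.06 SE, adjusted p = 1.48e-16). Ccdc82+/- mice had 95.5 to 122.2 CPM without and 51.8 to 67.2 with Q140, and Ccdc82-/- mice 92.5 to 123.2 and 54.1 to 60.8. The drop was to 52.9% and 53.0% of control there, again with no overlap.

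Kcnh3 (chr15:99224861-99242817), the Elk-type gene with the highest level, ranged from 179.8 to 199.7 CPM (median 185.3) in WT and 124.4 to 141.5 (median 129.3) in Q140. The groups did not overlap (log2 fold change -0.51 ± 0.03 SE, adjusted p = 1.99e-19). The log2 fold change was -0.51 on the other 2 backgrounds too, without overlap. Kcnh8, the remaining Elk-type gene, was rare and went the other way, with 0.269 to 0.811 CPM in WT and 0.643 to 1.08 in Q140. Those ranges overlapped, and the gene was higher by 0.49 ± 0.18 (SE) on the log2 scale (adjusted p = 0.0293). Without WT female 4 and Q140 Ccdc82-/- female 3, the libraries with the most Slc17a7, the adjusted p was 0.0839 and the log2 fold change 0.39. On the Ccdc82+/- background Kcnh8 was higher by 0.75 ± 0.18 (SE, adjusted p = 6.41e-04). On the Ccdc82-/- background it was higher by 1.22 ± 0.19 (SE, adjusted p = 1.08e-06), with 0.243 to 0.647 CPM without and 0.794 to 1.30 with Q140.

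The other Kcnh genes changed less. Kcnh6, an Erg-type gene, rose from a median of 4.37 CPM (3.78 to 4.90) in WT to 5.32 (4.62 to 6.29) in Q140 (log2 fold change 0.29 ± 0.07 SE, adjusted p = 0.00105). The ranges overlapped on every background, where its log2 fold changes were 0.27 on both +/- and -/-. Kcnh2, also of the Erg type, was lower in Q140 by a log2 fold change of -0.14 and was not called on the other backgrounds. Its call against WT was lost under total-count scaling. Kcnh1, an Eag-type gene, was called only on the Ccdc82+/- and Ccdc82-/- backgrounds. Its log2 fold changes were 0.18 on both of those backgrounds and 0.05 against WT (adjusted p = 0.314). Under total-count scaling, and with log2 FPKM, Kcnh1 was called against WT as well. The interaction terms for Kcnh1 were not called (adjusted p = 0.914 and 0.998), so its change was not shown to differ between backgrounds.

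Kcnq3 and Kcnq5 contribute to the M current, and both genes fell on all 3 backgrounds. Kcnq5 had a median of 178.5 CPM in WT, where the lowest library was at 169.0, and ranged from 134.9 to 171.2 (median 149.1) in Q140, with overlap. It stood at 80.9% of WT (adjusted p = 7.29e-09), and on the other backgrounds the groups did not overlap. For Kcnq3 the change was smaller, to 87.6% of WT, and the groups overlapped on all 3 backgrounds (360.2 to 466.1 CPM in WT, 343.8 to 422.3 in Q140).

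Kcnb2, a delayed rectifier gene, was not called in Q140 against WT (log2 fold change -0.11 ± 0.06 SE, adjusted p = 0.158).

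Among the A-type genes, Kcnd1 fell on all 3 backgrounds (log2 fold change -0.18 ± 0.05 SE against WT), while Kcnd2, the most abundant of them, was not called against WT. Kcnd2 ranged from 241.2 to 275.2 CPM in WT and 231.2 to 271.7 in Q140 (log2 fold change -0.06 ± 0.03 SE, adjusted p = 0.0840). It was called lower on the +/- background (-0.15) and on the -/- background (-0.09), with overlapping ranges. Without WT female 4 and Q140 Ccdc82-/- female 3, Kcnd2 was called against WT too. Under total-count scaling its call on the -/- background was lost. Kcnd3 stood at 100.1% of WT, with a 95% interval of its log2 fold change from -0.11 to 0.11.

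Of the 6 tested Shaker-type genes (Kcna), Kcna1 and Kcna4 were called lower in Q140. Kcna1 ranged from 131.0 to 150.5 CPM (median 135.6) in WT and from 116.8 to 127.9 (median 118.7) in Q140, without overlap (log2 fold change -0.20 ± 0.03 SE, adjusted p = 2.10e-06). Its log2 fold changes of -0.08 and -0.09 on the +/- and -/- backgrounds, both called, came with overlapping groups. These calls were lost in 5 alternatives on the +/- and 8 on the -/- background, among them total-count scaling (log2 fold changes -0.01 and -0.02) and, on the -/- background, the replicate block (adjusted p = 0.0555). Kcna1 sits between Kcna5 and Kcna6 on chromosome 6, 104985 bases from the one and 61945 from the other. Neither neighbour was called against WT (log2 fold changes -0.08 and 0.004). Kcna2, which pairs with Kcna1 along axons, stood at 95.4% of WT (adjusted p = 0.206). In the fast-firing Kcnc family, Kcnc1 was not called against WT (log2 fold change -0.10, adjusted p = 0.113).

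**Figure D4:**
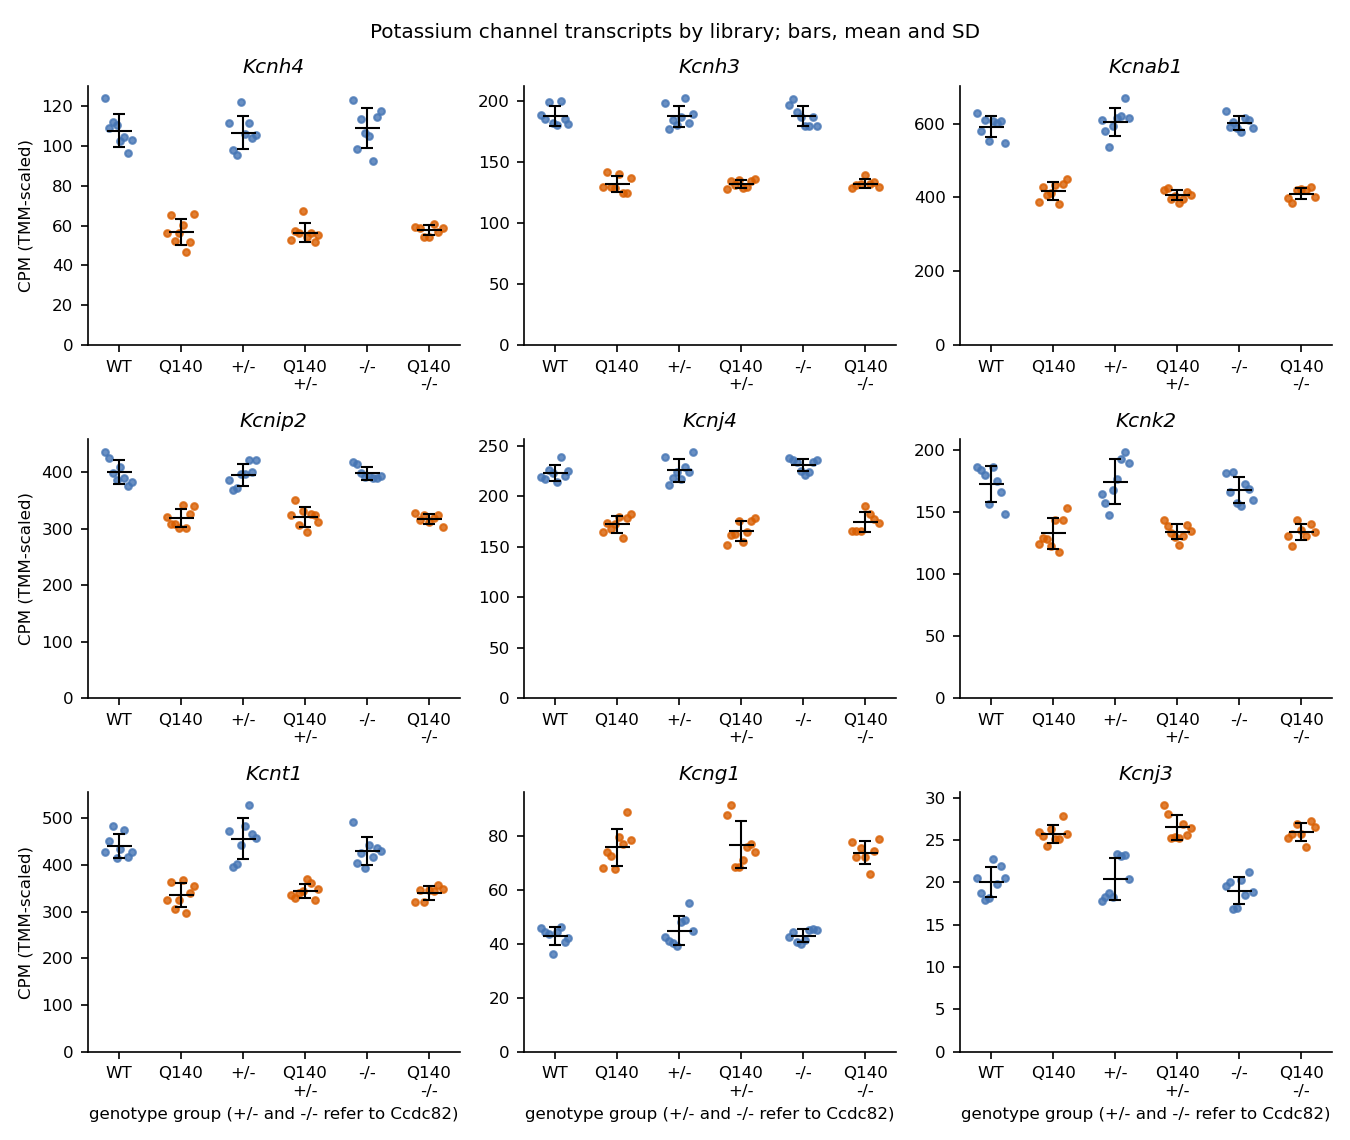
CPM (vertical axes) of 9 subunit genes in each library, by genotype group (horizontal axes), with mean and SD, blue without and orange with Q140. The groups with Q140 lie below their controls in Kcnh4, Kcnh3, Kcnab1, Kcnip2, Kcnj4 and Kcnt1, and above them in Kcng1 and Kcnj3.

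Auxiliary genes included the next large falls. Of 12 tested, 3 were called lower and none higher in Q140 against WT (16.5% and 18.2% of all tested genes were). Kcnab1 (chr3:65109384-65378223) ranged from 546.3 to 627.6 CPM (median 604.4) in WT and from 383.4 to 450.3 (median 419.0) in Q140. There was no overlap, and Q140 stood at 70.5% of WT (log2 fold change -0.50 ± 0.03 SE, adjusted p = 1.10e-17). On the +/- and -/- backgrounds it stood at 67.0% and 68.2%, also without overlap. Its relative Kcnab2 was not called against WT (95.9%, adjusted p = 0.0896) and was called lower on the +/- background (91.9%) and the -/- background (90.7%). Without WT male 1, Kcnab2 was called against WT too. Under total-count scaling its call on the +/- background was lost.

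Kcnip2 and Kcnip3, partners of the A-type channels, both fell. Kcnip2 ranged from 375.6 to 436.9 CPM (median 394.9) in WT and from 301.0 to 341.8 (median 315.3) in Q140. Its groups did not overlap on any background, and the allele left 79.5%, 81.2% and 79.9% of the control level on WT, Ccdc82+/- and Ccdc82-/-. Kcnip3, which is also known as a calcium-dependent transcription repressor, ranged from 121.1 to 144.7 CPM (median 134.5) in WT and from 93.6 to 113.6 (median 109.0) in Q140. It did not overlap on any background either and stood at 79.3%, 74.2% and 74.0% of control. The other Kcnip genes, Kcnip1 and Kcnip4, were not called against WT (log2 fold changes -0.10 and 0.08).

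Of 9 tested silent subunit genes, 2 were higher and 4 lower in Q140 against WT (18.2% and 16.5% of all tested genes were). The largest rise among all subunit genes in that comparison was in 1 of these 9. Kcng1 (chr2:168260117-168281736), which joins Kcnb subunits in mixed channels, ranged from 36.1 to 46.4 CPM (median 44.0) in WT and from 67.8 to 89.2 (median 75.6) in Q140. All Q140 libraries lay above all WT libraries, at 176.2% of the WT level (log2 fold change 0.82 ± 0.06 SE, adjusted p = 5.59e-15). On the +/- background it stood at 171.4% and on the -/- background at 170.9% of control, again without overlap. In FPKM its level was 9.34 ± 0.664 (SD, n = 8) in WT and 17.1 ± 1.58 (SD, n = 8) in Q140.

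Kcnv1, another silent gene, was higher by 0.17 ± 0.03 (SE) on the log2 scale against WT (adjusted p = 2.72e-05), from 54.7 to 65.1 CPM in WT to 59.7 to 71.9 in Q140, with overlap. It was also called on the other 2 backgrounds, at 0.16 on each, and on the -/- background the groups did not overlap. The most abundant silent gene, Kcnf1, was not called against WT (17.2 FPKM in WT and 19.4 in Q140, adjusted p = 0.143). Kcns1 fell from 8.86 to 10.9 CPM (median 9.86) in WT to 6.60 to 8.17 (median 7.83) in Q140 without overlap (log2 fold change -0.35 ± 0.06 SE, adjusted p = 1.79e-05), and on the other backgrounds the groups overlapped. Kcns2 stood at 88.4% of WT and was called on all 3 backgrounds, but on the -/- background the call was lost in 7 alternatives (adjusted p = 0.365 with total-count scaling). Kcng4 had a large but loosely measured fall against WT (log2 fold change -0.93 ± 0.28 SE, 0.331 to 0.882 CPM in Q140 and 0.648 to 2.01 in WT) and was not called on the other backgrounds (-0.22 and -0.41).

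Of 12 tested inward rectifier genes, 3 were lower and 2 higher in Q140 against WT, where 16.5% and 18.2% of all tested genes were. Kcnj4 (chr15:79483714-79505241) ranged from 213.8 to 238.9 CPM (median 221.5) in WT and from 158.2 to 182.3 (median 173.1) in Q140. Its groups did not overlap on any background, with 77.3%, 73.4% and 75.3% of the control level (adjusted p = 1.27e-13 against WT). Kcnj2, another strong inward rectifier, was not called (94.4% of WT, adjusted p = 0.302). Kcnj14 was lower against WT, from a median of 1.92 CPM (1.73 to 2.78) to 1.66 (highest 2.05), with overlap, and was not called on the other backgrounds. Kcnj11, the pore of ATP-sensitive channels, was at 92.2% of WT (adjusted p = 0.00575). That call was lost under total-count scaling, and Kcnj11 was not called on the +/- background.

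The 2 higher genes, Kcnj3 and Kcnj9, encode subunits of G protein-gated channels. The other tested subunit genes of that type were not called: the log2 fold change was -0.49 ± 0.33 (SE) for Kcnj5, with an adjusted p of 0.263, and -0.27 ± 0.17 (SE) for Kcnj6, with an adjusted p of 0.227. Kcnj3 (chr2:55435970-55598145) ranged from 17.9 to 22.8 CPM (median 20.1) in WT and from 24.2 to 27.8 (median 25.6) in Q140. The groups did not overlap on any background, and its log2 fold changes were 0.36, 0.38 and 0.44 on WT, Ccdc82+/- and Ccdc82-/-. A gene on the opposite strand, Gm26794, shares 31.1% of the exon bases of Kcnj3 and had 3383 counts in all libraries together against 52167. The libraries were stranded, the strand setting of the counting is not given in the sources used here, and the part of those reads was not tested. Kcnj9 was at 107.0% of WT (adjusted p = 0.0174), with overlapping ranges, and was not called on the +/- background. Kcnj10, the main inward rectifier of astrocytes and the neighbour of Kcnj9 on chromosome 1, was not called against WT (121.9 to 161.1 CPM in WT and 116.6 to 154.3 in Q140, adjusted p = 0.248).

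Of 10 tested 2-pore genes, 3 were lower and none higher in Q140 (16.5% and 18.2% of all tested genes were). Kcnk2 (chr1:189207930-189402273), which opens to stretch and heat, ranged from 148.5 to 186.2 CPM (median 177.3) in WT and from 117.8 to 153.4 (median 128.6) in Q140. The ranges overlapped, and Q140 stood at 76.8% of WT (log2 fold change -0.38 ± 0.05 SE, adjusted p = 1.89e-07). On the other backgrounds, where it stood at 77.1% and 79.6%, the groups did not overlap. Kcnk1 was at 87.9% of WT (89.9 to 109.8 CPM in WT, 82.4 to 91.2 in Q140) and was lower on all 3 backgrounds. Kcnk9 was just inside the threshold against WT (log2 fold change -0.17, adjusted p = 0.0472). It was not called without WT male 1 (adjusted p = 0.0525) or without Ccdc82-/- male 1 (0.0514).

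Among the 8 genes grouped as calcium- or sodium-activated, 3 were lower and 1 higher (16.5% and 18.2% of all tested genes were). The higher gene, Kcnu1, was placed in this group as a relative of Kcnma1. Kcnt1 (chr2:25863734-25918273), a sodium-activated channel, ranged from 414.5 to 482.7 CPM (median 430.7) in WT and from 297.5 to 367.1 (median 333.4) in Q140. No overlap was seen on any background, and the allele left 75.9%, 75.5% and 78.7% of the control level. Kcnn3, a small-conductance calcium-activated channel, was lower against WT (76.0 to 83.5 CPM in Q140, 77.3 to 111.1 in WT, adjusted p = 0.00779) and was called on neither other background. Kcnma1, the large-conductance channel, was at 94.0% of WT (adjusted p = 0.0396) and was not called on the others. Without WT male 1 the call of Kcnma1 was lost. Under total-count scaling the calls of Kcnn3 and Kcnma1 against WT were both lost. Kcnu1, a relative of Kcnma1 known from sperm, was rare and higher: 2.24 to 3.18 CPM in WT and 3.03 to 3.62 in Q140 (log2 fold change 0.29 ± 0.07 SE, adjusted p = 5.76e-04). Its log2 fold changes were 0.54 on the +/- and 0.40 on the -/- background, where the groups did not overlap.

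Kcne2 encodes an auxiliary subunit and Kcnj13 an inward rectifier, both known from the choroid plexus. On the Ccdc82-/- background Kcne2 was called lower with Q140 (log2 fold change -1.65 ± 0.62 SE, adjusted p = 0.0367). In Ccdc82-/- male 1 it reached 2.15 CPM and Kcnj13 reached 3.14 CPM, while the next highest libraries were at 0.442 and 0.526. The sum of 12 choroid plexus markers was 344.6 FPKM in that library and 46.0 to 102.3 in the others. Without it the log2 fold change of Kcne2 was 0.295 (adjusted p = 0.706). Kcnj13 did not pass the filter on low counts, and 49.1% of its exon bases are shared with Gigyf2 on the opposite strand.

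**Figure D5:**
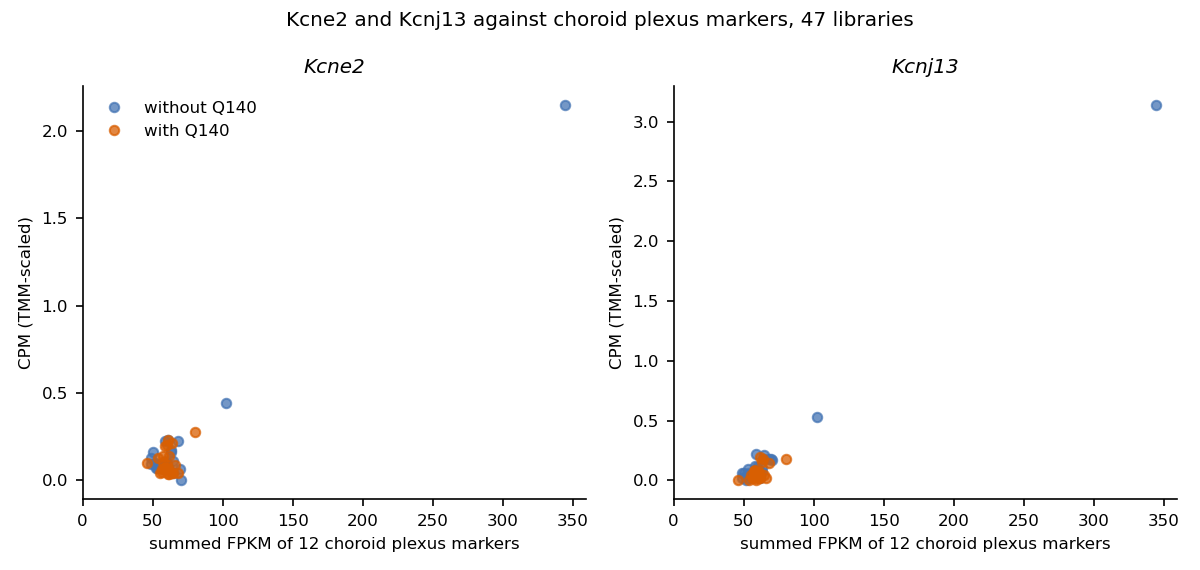
CPM of Kcne2 and Kcnj13 (vertical axes) against the summed FPKM of 12 choroid plexus markers (horizontal axes) in 47 libraries, coloured by whether the mice carried Q140. One library without Q140, Ccdc82-/- male 1, lies at 344.6 FPKM with 2.15 and 3.14 CPM.

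The Ccdc82 alleles alone were compared with WT, and on the Q140 background with Q140, to ask what loss of Ccdc82 changes. These comparisons share the WT libraries or the Q140 libraries with each other and with those above. No subunit gene was called in Ccdc82+/- or Ccdc82-/- against WT, nor in Q140 Ccdc82+/- or Q140 Ccdc82-/- against Q140, where 0.00521% of all genes were called in each, by edgeR. DESeq2 also called 0 of the subunit genes in each. An unadjusted p under 0.05 was found for 3, 8, 2 and 2 of the 80 genes in that order, where 3.27%, 4.19%, 5.74% and 3.71% of all tested genes had one. The median 95% half-width of the log2 fold change of the subunit genes was 0.12 or 0.13. Kcnh4 stood at a median of 106.6 CPM in WT, 105.6 in Ccdc82+/- and 109.8 in Ccdc82-/-, and at 56.3 in Q140, 55.9 in Q140 Ccdc82+/- and 58.7 in Q140 Ccdc82-/-. The corresponding medians of Kcng1 were 44.0, 43.6 and 43.5 CPM without Q140 and 75.6, 74.9 and 74.5 with it.

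Whether the effect of Q140 differed with the Ccdc82 genotype was tested as an interaction. None of the 80 genes was called in either interaction, and no gene at all was (0% of all tested genes). DESeq2 called 0 as well, and 6 and 5 of the 80 had an unadjusted p under 0.05 for +/- and -/-, where 5.27% and 4.30% of all tested genes did. Kcnu1 had an interaction of 0.26 ± 0.10 (SE) with Ccdc82+/- (adjusted p = 0.914), and Kcnh8 one of 0.72 ± 0.26 (SE) with Ccdc82-/- (adjusted p = 0.998). The half-width was 0.17 and 0.18 at the median of the subunit genes.

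In a model with separate groups for the sexes, 6 subunit genes were higher and 18 lower in Q140 females against WT females, where 12.3% and 11.6% of all genes were called (24 in either direction, against 23.9%). In males 4 were higher and 21 lower, where 10.1% of all genes were called in each direction (25 in either, against 20.2%). The difference between the sexes was called for none of the 81 genes tested (0% of all genes; 0 by DESeq2), and 4 of 81 had an unadjusted p under 0.05, against 8.32% of all tested genes. Kcnh4 changed by -0.98 in females and -0.85 in males on the log2 scale, and Kcng1 by 0.73 and 0.90. Kcnb2 was called lower in males (-0.28) and not in females (0.06), and the test of that difference was not past the threshold (adjusted p = 0.557).

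Genes whose products work with the channels but do not carry the name were listed apart. Of 28 channel partners, 27 entries were tested (Dlg2 on 2 identifiers). In Q140 against WT 11 were higher and 8 lower, where 18.2% and 16.5% of all tested genes were. Their median log2 fold change was 0.02. Dpp10, a partner of the A-type channels, rose from 60.6 ± 7.10 CPM (SD, n = 8) to 86.3 ± 5.73 (SD, n = 8), a log2 fold change of 0.51 ± 0.07 (SE). Dlg4, a scaffold that clusters Kcna channels, fell from 1055 ± 54.5 CPM (SD, n = 8) to 888.2 ± 33.1 (SD, n = 8), a log2 fold change of -0.25. Pak1 (0.22) and Dlg3 (0.14) were higher. Of 17 genes for potassium pumps and transporters, 16 were tested, and 3 were higher and 5 lower, beside the same shares of all genes. Their median log2 fold change was -0.06. Slc24a2, a potassium-dependent sodium-calcium exchanger, was lower by a log2 fold change of -0.32 ± 0.04 (SE), and among the sodium pump genes Atp1b2 (-0.28) was lower while Atp1b1 (0.17) was higher.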

How the data were processed

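Striatal RNA was sequenced in 47 libraries from stranded TruSeq preparations per the labels' protocols. The deposited counts are raw reads per gene, and the deposited FPKM were scaled by the authors: each equals the count divided by the library total and 1 length per gene. STAR 2.7.5c, SAMtools 1.10 and HTSeq 0.12.3 are named with GRCm38 and mm10 in the submitters' processing notes; settings and annotation release are not given in the sources used here. No value column was left unmapped (0).

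Counts were tested with edgeR 4.0.16 in R 4.3.3: filterByExpr, TMM scaling, and a robust quasi-likelihood model with 6 genotype groups and a sex term over 47 libraries. P-values were adjusted by Benjamini-Hochberg over all 19193 genes tested (19714 in the model with sexes apart). The test was checked on simulated counts of 19193 genes, with 100 changed by 0.5 and 100 by 1 on the log2 scale. It recovered 96% and 100% of them, with 14 false calls. Far fewer genes changed there than were called in Q140 against WT, so it could not check the scaling. CPM are TMM-scaled. Alternatives used DESeq2 1.42.0 and limma 3.58.1 on log2(FPKM + 0.1). Positions come from GENCODE M21 and promoter sequences from RefSeq.

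The genes, lists, tests and named-gene rule were chosen with earlier results of these data known. The rule names up to 12 rises and 12 falls in Q140 against WT whose average log2 CPM is 0 or more, up to 2 genes per subfamily, the 10 highest in FPKM and 4 per partner list. Kcng4, Kcnh8, Kcne2, Kcnj13 and other genes outside it were named after their values were seen. Intervals cover the modelled spread between libraries; duplicate reads could not be told apart. Some genes that the rule names are not reported here and were left out of the flagged results, are not labelled in any figure, and stay in all counts.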

Additional observations from a re-analysis of the deposited data

Results flagged for a closer look

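Of 192 groups of values (32 named subunit genes in 6 groups), 14 had a library far from the rest, where chance gives about 1 in 20. Among genes lower in Q140, Kcnh4 was at 67.2 CPM in Q140 Ccdc82+/- female 4 (others 51.8 to 57.2), Kcns1 at 6.60 in Q140 female 1 (7.64 to 8.17), and Kcnq5 at 129.5 in Q140 Ccdc82-/- female 1 (142.5 to 150.8). Kcnj14 was high in WT female 2 (2.78 CPM, others 1.73 to 2.22) and in Ccdc82+/- female 4 (2.73, others 1.70 to 2.18). Kcna1 was at 150.5 CPM in WT male 1 (131.0 to 139.2). Kcng3 was low in Ccdc82+/- male 4 (7.61 CPM, others 9.33 to 10.6) and in Ccdc82-/- female 2 (5.52, others 9.11 to 11.8). Kcnma1 was low in that same Ccdc82-/- female 2 (66.0 CPM, others 78.4 to 84.8) and in Q140 Ccdc82+/- male 3 (74.9, others 78.9 to 81.9), and high in Q140 Ccdc82-/- female 3 (84.2, others 77.5 to 78.7). Kcnab2 was at 270.4 CPM in Q140 Ccdc82-/- male 2 (291.4 to 303.9), Kcnj10 at 162.8 in Ccdc82+/- female 4 (129.2 to 143.9), and Kcnu1 at 4.17 in Q140 Ccdc82-/- female 2 (3.12 to 3.57).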

How the results depend on the processing

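In females only, which leaves fewer libraries, Q140 against WT gave 19 called subunit genes (4 higher, 15 lower), 19 on the Ccdc82+/- background (6 higher, 13 lower) and 21 on the Ccdc82-/- background (5 higher). The share of all genes called in females only is not given here, so these counts do not single out the subunit genes. The median log2 fold change against WT was then -0.0723 for the subunit genes and 0.0025 for all genes. Total-count scaling and log2 FPKM each gave 13 higher in Q140 against WT, and log2 FPKM gave 15 lower on the Ccdc82-/- background. Under total-count scaling 30.9% of all tested genes were higher against WT. For log2 FPKM that share is not given here, and the median log2 fold change against WT was 0.0494 for all genes and -0.0314 for the subunit genes. The cause was not tested. The summed level in WT was 1153 with TMM-scaled CPM per kilobase and 1129 FPKM as reported. With the replicate block, 34, 33 and 33 genes were called on the 3 backgrounds against 35, 33 and 35. No pair of groups had every correlation of same-numbered libraries over 0.1. That check is too strict to show whether libraries were paired, so pairing was not settled. The alternatives chosen after seeing the data were leaving out Ccdc82-/- male 1, where the log2 fold change of Kcne2 on that background was 0.295 (-1.65 without WT male 1), and leaving out WT female 4 and Q140 Ccdc82-/- female 3. Kcnk9, Kcnh5 and Kcnma1 lost their call against WT in 11, 8 and 6 of the alternatives. With plate column as a factor, Kcna4, Kcng3, Kcnh5, Kcnma1 and Kcnk9 lost their call against WT and Kcnc1 gained one. On the Ccdc82-/- background Kcna1 and Kcns2 lost theirs in 8 and 7. The counts of 0 in the Ccdc82, interaction and sex comparisons stayed 0 in all alternatives run.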
